A study of Mus musculus with 12 samples.

Results

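The left ventricle of sham operated mice was compared between Prkca T497A mice and wild type mice. These are 6 of the 12 RNA sequencing libraries of the series, 3 per genotype, chosen by their labels and not by any measured value. The mice had sham surgery at 10 weeks of age and tissue was taken 5 weeks later, at 15 weeks. The other 6 libraries come from mice of both genotypes that had transverse aortic constriction (TAC), a band around the aorta tied over a 27-gauge needle that loads the ventricle with pressure, and were used here to estimate the spread and to set each difference beside its value under load. The series title names CRISPR-Cas9 base editing. The number of mutant alleles, the strain and whether wild type mice were littermates were not found in the labels. Each title carries a number of its own (65, 80 and 190 for the wild type sham libraries, 67, 79 and 149 for the T497A sham libraries), but no label says that it marks an animal. A p-value here therefore measures the spread from library to library, which may be technical. The question put to the data is what the substitution does, or does not do, to the ventricle without pressure overload.

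Prkca encodes protein kinase C alpha, a serine and threonine kinase that is switched on by calcium and diacylglycerol after stimulation of Gq-coupled receptors. Before it can respond, the kinase is primed by phosphorylation: Pdpk1 phosphorylates a threonine in the activation loop, and 2 sites near the carboxyl terminus are phosphorylated with help from the mTORC2 complex. In heart muscle the kinase is known for lowering contractility, in part through inhibitor 1 of protein phosphatase 1 (Ppp1r1a) and phospholamban (Pln), which governs the calcium pump of the sarcoplasmic reticulum. The replaced threonine is that of the activation loop. Its codon is shown in capitals with the coding bases on either side, since it is the difference by which the groups are labelled. It lies in exon 13 of 17 of the gene, on the minus strand of chromosome 11 (GRCm38, chr11:107978267-107978269).
Prkca, codon of the replaced threonine, reference: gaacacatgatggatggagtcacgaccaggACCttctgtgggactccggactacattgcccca

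Tested one by one, 4 of 15764 genes differed between the genotypes, 0.0254% of those tested, and all 4 were higher in T497A. The test was edgeR's quasi-likelihood test in one model over all 12 libraries. A gene is said to be called where its p, adjusted by Benjamini and Hochberg's method for the number of genes tested, was under 0.05. Of the 4, 3 are annotated as processed pseudogenes, which are copies of a spliced messenger RNA inserted back into the genome, and the other is Gpr179. After TAC the same test between the genotypes called 1371 genes, 8.7% of those tested, and 24% had an unadjusted p under 0.05. After sham 477 genes had an unadjusted p under 0.05 (3.03%), 259 higher (1.64%) and 218 lower (1.38%) in T497A. The median log2 fold change over all tested genes was 0.0024, and 90% of genes lay between -0.44 and 0.54.

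**Figure D1:**
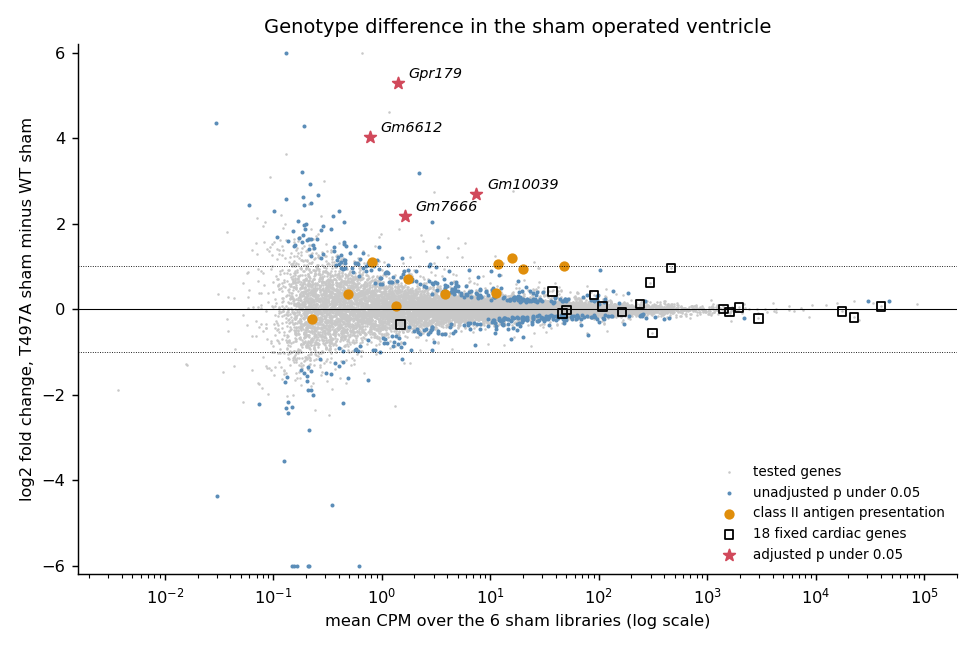
Log2 fold change of T497A sham minus wild type sham against mean level over the 6 sham libraries on a log axis (CPM, a gene's count relative to the TMM-scaled library total), 1 point per tested gene; dotted lines mark a 2-fold difference, and 8 genes beyond 6 on the log2 scale are drawn at the edge. The 4 called genes lie above the other genes of their level, the 18 fixed cardiac genes lie within 1 of 0, and class II genes lie at or above 0 with 1 exception.

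The 6 libraries were of similar depth, and differed in the traces of other muscle they held. Totals ran from 36862004 to 46898344 counts. Log2 levels correlated at 0.977 to 0.984 over genes for the 15 library pairs, and a chi-square test of their counts gave 22.6 or more per degree of freedom, so no library repeats another. Male transcripts were present in every library (Kdm5d 17.7 to 22.1 CPM) and Xist was at most 0.369 CPM. The labels call the cell type cardiomyocyte, but the tissue is ventricle: the 12 cardiomyocyte markers summed to 54020 to 66340 CPM, and fibroblast (1918 to 2212), endothelial (1097 to 1378) and macrophage markers (252.7 to 349.6) were present in every library. Ly6g of neutrophils and Sftpc of lung were at 0 in all 6, but other genes of their lists were detected. Csf3r of neutrophils had 12 to 41 counts and Sftpb of lung 1 to 19. The neutrophil list summed to 0.871 to 2.99 CPM, and the lung and thymus list to 0.274 to 0.527. The 12 atrial markers, Nppa among them, summed to 127.7, 129.3 and 80.4 CPM in wild type and to 136.9, 135.3 and 221.9 in T497A, so the groups did not overlap. All 11 tested atrial markers were higher in T497A (median 0.42, or 0.23 without T497A replicate 3) and none had an unadjusted p under 0.05. Myl7, the atrial myosin light chain, was at 44.8 CPM in T497A replicate 3 and at 8.25 to 22.5 in the other 5. Myh4, a myosin of fast skeletal muscle, was at 9.56, 5.23 and 0.0581 CPM in wild type and 10.6, 10.7 and 0.748 in T497A, low in replicate 3 of each genotype. The part of atrial or skeletal muscle in the genotype differences was not tested.

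One library of each genotype stood apart in the genes of the circadian clock. Arntl, the activating clock factor also called Bmal1, was at 0.993, 7.91 and 1.68 CPM in the wild type libraries and at 1.72, 14.2 and 0.77 in the T497A libraries. Per2, a clock repressor, was at 37.8, 9.47 and 18.4 CPM and at 41.2, 5.27 and 29.9. Replicate 2 of each genotype was thus the highest for Arntl and the lowest for Per2 in its group. The same 2 libraries were the highest of their groups for Pdk4, the kinase that restrains pyruvate dehydrogenase when fat is burned, at 221, 523 and 194 CPM in wild type and 383, 1183 and 261 in T497A. They also had the highest scores on the first principal component of the sham libraries, which held 27.4% of the variance: 19.2 and 43.9, against -25.3 to -5.78 for the other 4. Their titles carry the neighbouring numbers 80 and 79. Wild type TAC replicate 1, numbered 82, also had a high Arntl level (8.96 CPM), as had the TAC libraries numbered 151 and 137 (7.15 and 12.5 CPM), while those numbered 64, 65 and 67 had 1.78, 0.993 and 1.72. What sets them apart was not tested. A fit with 3 ranges of these numbers as a term (under 70, 70 to 99, 100 or more), chosen after seeing the data, still called Gm10039 and Gm7666 (adjusted p = 3.45e-06 and 0.0273) but not Gm6612 and Gpr179 (adjusted p = 0.0959 and 0.131, all by edgeR's quasi-likelihood test). Without both shifted libraries, Gm10039 was still called and the other 3 genes were not (adjusted p = 0.180 for Gm7666, 0.0564 for Gm6612 and 0.477 for Gpr179 by edgeR's quasi-likelihood test).

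Gm10039 carried the clearest difference. Its wild type sham libraries held 2.35, 2.08 and 1.51 CPM and its T497A sham libraries 12.6, 12.9 and 13.0, so the spread within T497A was a small part of the gap. The log2 fold change was 2.69 ± 0.15 (SE), with an adjusted p of 1.10e-06 by edgeR's quasi-likelihood test. After TAC the libraries held 2.02, 2.12 and 2.28 CPM in wild type and 10.1, 10.4 and 10.9 in T497A, a log2 fold change of 2.29 ± 0.15. Gm10039 is a copy of Atp5g1, which encodes a subunit of the membrane ring of ATP synthase, and differs from it at 1 base in 411 (99.8% identity). The stretch around that base shows how little separates a read of the copy from a read of its source; the differing base is in capitals and is G385A, Atp5g1 base first, counted from the 5′ end of Gm10039.
Gm10039: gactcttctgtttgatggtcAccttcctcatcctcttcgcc
Atp5g1: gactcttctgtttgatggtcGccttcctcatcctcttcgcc

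Gm7666 was at 0.439, 0.648 and 0.697 CPM in wild type and at 2.34, 2.94 and 2.75 in T497A. Its log2 fold change was 2.17 ± 0.27 (adjusted p = 0.0128, edgeR's quasi-likelihood test), and the groups did not overlap after TAC either (0.482 to 0.652 against 1.67 to 2.50 CPM). It resembles Phb, which encodes prohibitin of the inner mitochondrial membrane, at 99.9% of 819 bases. The single difference is A231G, Phb base first, counted from the 5′ end of Gm7666.
Gm7666: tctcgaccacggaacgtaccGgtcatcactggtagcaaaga
Phb: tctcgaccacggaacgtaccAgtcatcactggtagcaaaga

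Gm6612, a second and more diverged copy of Atp5g1 (92.2% identity, with 16 mismatches and 16 gap bases), had 3, 8 and 0 counts in wild type and 54, 44 and 83 in T497A. That is 0.0827 ± 0.0901 against 1.46 ± 0.32 CPM (SD, n = 3), a log2 fold change of 4.02 ± 0.58 (SE), and edgeR's quasi-likelihood test gave an adjusted p of 0.0429. Gpr179 encodes an orphan receptor that organises signalling at retinal synapses. It was at 0.0231, 0.0223 and 0.174 CPM in wild type and at 3.06, 3.97 and 1.17 in T497A, a log2 fold change of 5.28 ± 0.75 (adjusted p = 0.0430 by edgeR's quasi-likelihood test). Replicate 3 was the lowest T497A library for Gpr179 and still lay above every wild type library. In wild type libraries of either surgery, Gm6612 had at most 8 counts and Gpr179 at most 6. Both genes thus passed the filter that left out genes with few counts through their T497A libraries alone. With no low-count filter both were still called higher in T497A (adjusted p = 3.94e-09 and 1.63e-08 by edgeR's quasi-likelihood test). That fit tested 29988 genes, and why its adjusted p values were far smaller was not tested. It uses the same libraries, so it is not separate support for these 2 genes. All 4 called genes were also called between the genotypes after TAC, in the same direction (log2 fold changes 1.79 to 4.86). Leaving out single sham libraries kept the direction of all 4 and the call of Gm10039, but ended other calls of edgeR's quasi-likelihood test. Gm7666 was not called without wild type replicate 1, T497A replicate 2 or T497A replicate 3 (adjusted p = 0.0682, 0.0860 and 0.0641 by edgeR). Gm6612 was not called without wild type replicate 1 (0.176) or without any 1 of the T497A replicates (adjusted p = 0.0760, 0.0860 and 0.221 by edgeR). Gpr179 was not called without wild type replicates 1 or 2 or T497A replicates 1 or 2 (adjusted p = 0.216, 0.282, 0.0987 and 0.120 by edgeR).

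**Figure D2:**
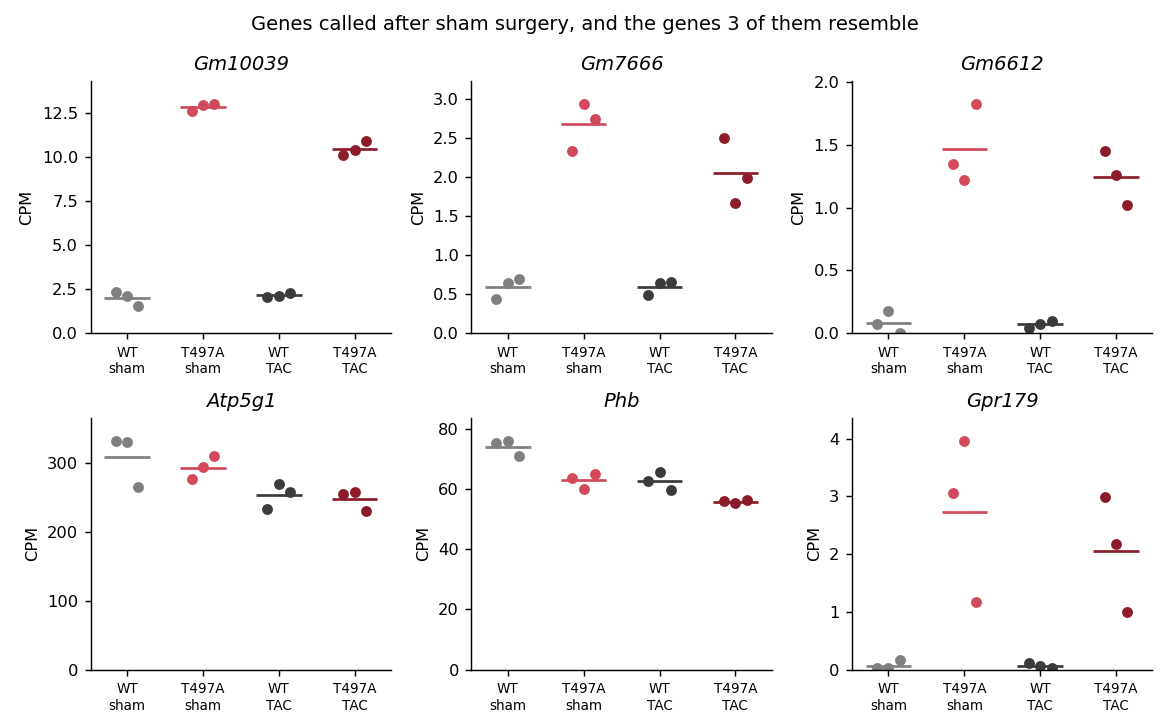
Level in CPM of the 4 called genes and of Atp5g1 and Phb in each of the 12 libraries; points are libraries, bars are means of 3, and each panel has its own axis from 0. The T497A libraries lie above the wild type libraries for each called gene after either surgery, and Phb lies lower in T497A after either surgery.

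The genes from which the pseudogenes were copied are far more abundant than the copies. Atp5g1 was at 332, 330 and 265 CPM in wild type and at 277, 293 and 310 in T497A, and the groups overlapped (-0.08 ± 0.09). The copies of Atp5g1 other than the gene itself summed to 2.29 ± 0.43 CPM in wild type and 14.5 ± 0.50 in T497A (SD, n = 3), and the whole family to 311 ± 38.6 and 308 ± 16.9 CPM. The gain of the copies is thus smaller than the spread of the family sum. Phb was at 75.2, 76.0 and 70.9 CPM in wild type and at 63.7, 60.0 and 65.1 in T497A. The groups for Phb did not overlap, but the difference did not pass the test over all genes (-0.24 ± 0.06, adjusted p = 1 by edgeR's quasi-likelihood test). With its copies, Phb summed to 74.7 ± 2.68 and 65.6 ± 2.53 CPM. The sources used here do not say how reads that fit several places were counted, so the split between a gene and its copy is uncertain. Gm7666 also lies within another annotated locus on chromosome 15.

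Of the 4 called genes 2 lie on the chromosome of Prkca. Gm10039 lies 7.6 Mb and Gpr179 10.6 Mb before the edited codon on chromosome 11, and Atp5g1 and Phb lie 11.9 and 12.3 Mb before it, while Gm7666 and Gm6612 are annotated on chromosome 15. Among the 456 tested genes within 15 Mb of Prkca, 37 had an unadjusted p under 0.05 (8.11%, against 3.03% of all genes), and 28 of these 37 had the same sign after TAC, against 189 of 440 elsewhere. One of them is Epn3, an endocytic adaptor gene, at 13.9, 21.6 and 21.9 CPM in wild type and 12.9, 10.3 and 12.1 in T497A (-0.70 ± 0.18 after sham and -0.78 after TAC). The edit and the chromosome segment around it cannot be told apart here.

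No difference in the level of Prkca itself was detected. Its 3 wild type sham libraries ran from 40.3 to 56.5 CPM and its T497A sham libraries from 38.1 to 50.3, and the 95% interval of the log2 fold change was -0.38 to 0.16. The count table does not show the edited base, so the level does not check the genotype label. Of 42 tested genes for protein kinase C isoforms and their regulators, none had an unadjusted p under 0.05 (3.03% of all genes did), 20 were higher and 22 lower, and the median log2 fold change was -0.010. For 38 of the 42 the 95% interval lay within a 2-fold difference either way; that was so for 75.6% of all tested genes. Among the other isoforms Prkcq, the theta isoform, was at 10.2, 6.46 and 8.07 CPM in wild type and 6.25, 6.38 and 5.41 in T497A (-0.45, 95% interval -0.93 to 0.02). Prkcd and Prkce, the delta and epsilon isoforms, overlapped between the groups (0.09 ± 0.18 and 0.08 ± 0.23). Pdpk1, the kinase that phosphorylates the activation loop, was at 69.0, 65.9 and 67.4 CPM against 77.4, 61.5 and 67.4 (0.03, 95% interval -0.15 to 0.21). The mTORC2 subunit genes Rictor and Mapkap1 had log2 fold changes of -0.08 ± 0.09 and 0.03 ± 0.07. Phlpp1, a phosphatase that removes a carboxyl terminal phosphate of the kinase, was at 36.8, 36.1 and 34.2 CPM against 32.9, 32.7 and 33.0 (-0.12, 95% interval -0.30 to 0.06), so its groups did not overlap although the interval includes 0. The chaperone gene Hsp90aa1 was high in T497A replicate 1 alone, at 187 CPM against 84.6 to 120 in the other 5. Marcks, a membrane protein named as a substrate of the kinase, overlapped (0.05 ± 0.30). Upstream, of 48 adrenergic and Gq signalling genes 1 was higher and 1 lower at an unadjusted p under 0.05. The former was Arrb2, which encodes beta-arrestin 2 (0.35 ± 0.15), and the latter Gnaq, the alpha subunit of Gq, at 45.8, 46.9 and 47.8 CPM against 42.6, 43.3 and 40.8 (-0.15 ± 0.06).

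The genes that mark a stressed ventricle varied among the sham libraries, but not with genotype beyond that spread. Nppa, the natriuretic peptide of atria and loaded ventricle, was at 28.6, 48.3 and 18.8 CPM in wild type and at 27.3, 48.9 and 51.7 in T497A. Its log2 fold change was 0.42 after sham (95% interval -0.76 to 1.59) and -2.39 after TAC. T497A replicate 3, the highest library for Nppa, was also the highest for the atrial light chain genes Myl4 (58.3 CPM, against 10.1 to 27.0 in the other 5) and Myl7, which are on the hypertrophy and fetal list too. Nppb, the second natriuretic peptide, was at 30.2, 160 and 49.2 CPM against 59.8, 128 and 114 (0.33, 95% interval -1.0 to 1.67, and -0.06 without wild type replicate 1). Ankrd1, a stretch-responsive gene of the sarcomere, was highest in wild type replicate 2, at 2588 CPM against 1133 to 1858 in the other 5 (-0.07 ± 0.31). Acta1, the skeletal actin that the fetal heart uses, ran from 101 to 473 CPM in wild type and from 335 to 405 in T497A. The slow myosin gene Myh7 was at 532, 191 and 395 CPM against 113, 154 and 491 (-0.56, 95% interval -1.97 to 0.85), and its adult counterpart Myh6 differed by -0.19 ± 0.14. Of the 19 tested hypertrophy and fetal genes none had an unadjusted p under 0.05, and 11 had an interval within 2-fold. Their median was 0.16 after sham and -0.99 after TAC. A moderate genotype difference in Nppb, Acta1 or Myh7 was therefore not detectable with 3 libraries a group.

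**Figure D3:**
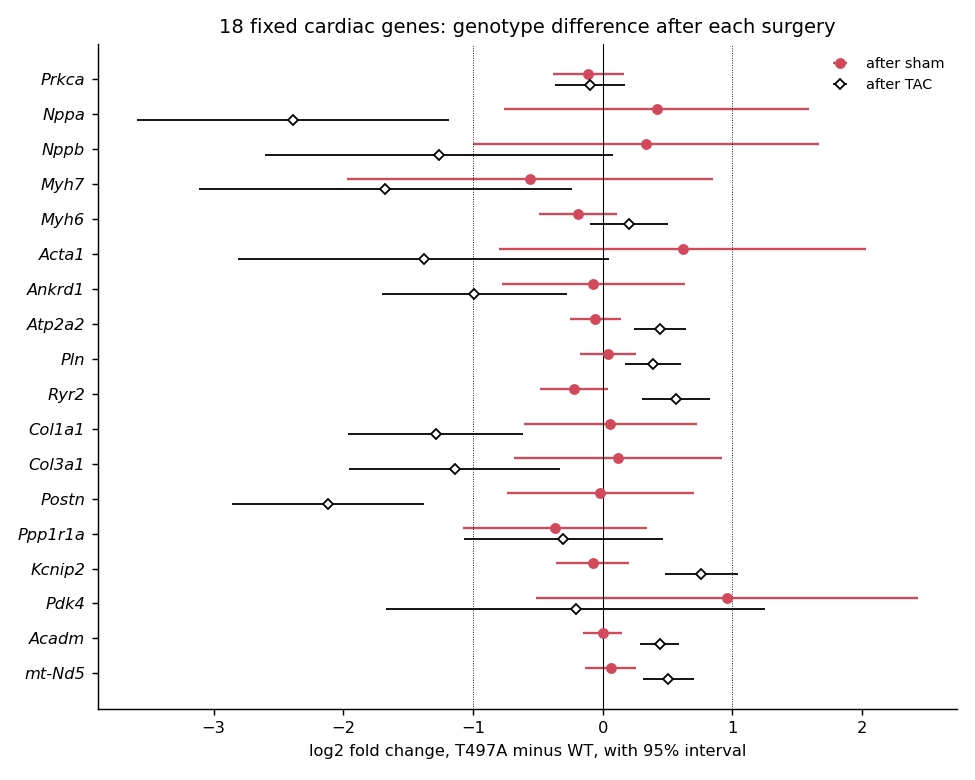
Log2 fold change of T497A minus wild type with its 95% interval for 18 fixed cardiac genes, after sham (circles) and after TAC (diamonds); dotted lines mark a 2-fold difference. After sham all 18 intervals include 0 and 12 lie within 2-fold either way, as was so for 75.6% of all tested genes. After TAC 9 of the 18 were called between the genotypes, against 8.7% of all tested genes. The 18 were chosen with earlier results of these data known.

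Genes of contraction, of calcium release and uptake by the sarcoplasmic reticulum and of electrical activity were measured more tightly. All 26 sarcomere genes had a 95% interval within 2-fold, with a median of -0.012, and none had an unadjusted p under 0.05. Atp2a2, which encodes the calcium pump of that store, was at 18623, 16995 and 17508 CPM in wild type and 18449, 15170 and 17474 in T497A. Its interval of -0.25 to 0.14 sets a bound of well under 2-fold on any sham difference, and after TAC its log2 fold change was 0.44. Pln, which inhibits that pump, overlapped likewise (0.04, 95% interval -0.18 to 0.26). Ryr2, the calcium release channel, was at 3368, 3110 and 3058 CPM against 3349, 2382 and 2470, with 2 T497A libraries below every wild type library and 1 among them (-0.22 ± 0.12). Ppp1r1a was low in all libraries, at 2.22, 1.47 and 1.34 CPM against 0.896, 1.83 and 1.19 (-0.37, 95% interval -1.08 to 0.35). Over the 31 calcium cycling genes, 1 (Camk2g, a calmodulin-dependent kinase) was lower at an unadjusted p under 0.05 (-0.16 ± 0.07) and none was higher. Over the 32 ion channel genes 2 were lower at that level, among them Hcn2, a pacemaker channel (-0.41 ± 0.15). Of all tested genes 1.38% were lower in T497A at that level. Kcnip2, a subunit of the transient outward potassium channel, overlapped (-0.07, 95% interval -0.36 to 0.21).

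Matrix genes overlapped between the genotypes in most cases. Col1a1, the fibrillar collagen chain, was at 89.1, 129 and 99.5 CPM in wild type and 77.5, 157 and 96.1 in T497A, and Postn, periostin of activated fibroblasts, at 44.2 to 58.5 against 37 to 62.8. Of 56 matrix and fibrosis genes 1 had an unadjusted p under 0.05, where 3.03% of all genes did. Their median was 0.047 after sham, against -1.06 after TAC. Single libraries set the sign of the sham median, which was -0.22 without T497A replicate 2, -0.093 without wild type replicate 1 and 0.17 without wild type replicate 2. Of 45 fatty acid oxidation genes, 1 was higher and 1 was lower at that level, with a median of 0.012. Ucp2, an inner membrane carrier gene of mitochondria, was the higher one, at 66.8, 58.4 and 87.7 CPM against 140, 115 and 144. Its groups did not overlap and its log2 fold change was 0.91 ± 0.32, with an adjusted p of 1 by edgeR's quasi-likelihood test; after TAC it was 1.28. Acadm, a mitochondrial enzyme of the pathway, was at 1463, 1384 and 1378 CPM against 1436, 1377 and 1413, with an interval of -0.15 to 0.15. All 67 nuclear genes for respiratory chain subunits had an interval within 2-fold, with a median of 0.038. Among 33 tricarboxylic acid cycle and branched-chain genes 27 were lower and 6 higher, with a median of -0.036. The largest difference there was in Mccc1, of leucine breakdown, at 117, 61.6 and 111 CPM against 62.7, 54.7 and 72.5 (-0.61 ± 0.21).

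Transcripts of the mitochondrial genome took a slightly larger share of counts in T497A, within the spread of the libraries. The share was 25.1, 26.6 and 29.0% in wild type and 28.5, 30.9 and 28.3% in T497A. The difference of 2.35 percentage points had an exact 2-sided permutation p of 0.3, where 3 against 3 libraries allow no p below 0.1. It was 1.47 points without wild type replicate 1, 1.5 without T497A replicate 2 and 3.39 without wild type replicate 3. All 13 mitochondrially encoded messenger RNAs were higher in T497A, with a median of 0.19, and they share 1 genome and 1 scaling. Of the 13, mt-Cytb and mt-Nd2 had an unadjusted p under 0.05 (0.20 ± 0.08 and 0.20 ± 0.09). The genes lie on 1 molecule, so the 13 are not 13 separate observations.

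**Figure D4:**
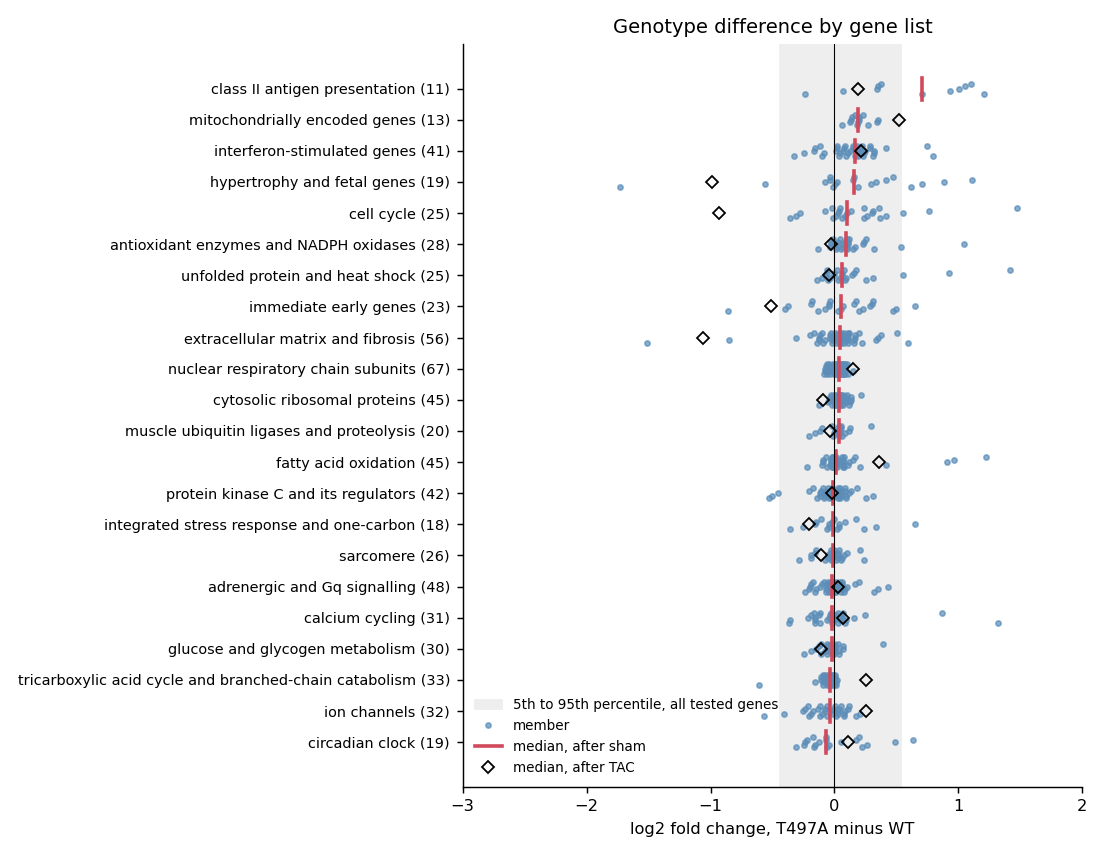
Log2 fold change of T497A minus wild type for every tested member of 22 gene lists (points), with the list median after sham (red bars) and after TAC (diamonds); numbers in brackets are tested members and the grey band holds 90% of all tested genes after sham. The class II median lies at 0.70 and the other medians after sham lie between -0.065 and 0.19, while those of the hypertrophy, matrix and cell cycle lists after TAC lie near -1.

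One group of genes stood higher in T497A sham libraries without passing the test over all genes. Class II histocompatibility molecules carry peptides to the surface of macrophages, dendritic cells and B cells for display to helper T cells; Cd74 is the chain that escorts them, and Ciita the factor that switches on their genes. Of the 11 tested class II presentation genes 10 were higher in T497A, 6 had no overlap between the groups with T497A higher (against 4.23% of all tested genes), and none was called. The same 6 had an unadjusted p under 0.05. The list's median log2 fold change was 0.70 after sham and 0.19 after TAC, beside 0.0024 over all genes after sham. Summed over the 11 genes the level was 79.3, 79.0 and 81.4 CPM in wild type and 134.6, 165.2 and 152.1 in T497A. After TAC it was 163.7, 150.1 and 180.4 against 151.8, 192.4 and 279.0, so that the wild type sham libraries were the low group of the 4.

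Cd74 was at 33.4, 31.4 and 29.9 CPM in wild type and 57.3, 70.1 and 62.9 in T497A (1.01, 95% interval 0.55 to 1.46). H2-Aa, an alpha chain, was at 14.0, 14.0 and 13.6 CPM against 25.6, 27.5 and 26.5 (0.93 ± 0.21). H2-Ab1, its beta chain partner, was at 7.80, 7.22 and 8.13 CPM against 13.4, 17.9 and 16.8 (1.05 ± 0.18). For these 3 genes the lowest T497A library lay well above the highest wild type library. H2-Eb1, a second beta chain, was at 7.23, 8.85 and 13.0 CPM against 18.3, 25.0 and 23.3 (1.20 ± 0.25). By edgeR's quasi-likelihood test the adjusted p was 0.130 for H2-Ab1, 0.941 for Cd74 and H2-Eb1 and 1 for H2-Aa. DESeq2, whose calls number 11 in all, called all 4 (adjusted p = 5.80e-05 for H2-Ab1, 2.65e-04 for Cd74, 2.81e-04 for H2-Eb1 and 0.0081 for H2-Aa). A fit of the 6 sham libraries alone by edgeR's quasi-likelihood test called H2-Ab1, Cd74 and H2-Aa (adjusted p = 0.0428, 0.0034 and 0.0034). With no low-count filter only H2-Ab1 of the 4 was called. None of the 4 was called by limma-voom, with RLE size factors, without mitochondrial genes or with any single sham library left out. The same held without the 2 libraries with shifted clock genes and with 3 ranges of title numbers as a term. H2-DMb1, which helps load peptides, was at 0.60, 0.536 and 0.407 CPM against 1.17, 1.16 and 1.01, and Ctss, the protease that trims Cd74, at 8.82, 10.8 and 9.93 against 11.9, 13.9 and 12.5. Ciita overlapped, at 1.36, 1.18 and 1.45 CPM against 1.39, 1.61 and 1.19 (0.07, 95% interval -0.51 to 0.65). After TAC the genotype difference was 0.25 for H2-Ab1, 0.40 for Cd74, 0.29 for H2-Eb1 and 0.54 for H2-Aa. The difference between the surgeries, called for 1.57% of all tested genes, was not called for any of these 4 (adjusted p = 0.111, 0.322, 0.215 and 0.568 in the interaction test of edgeR's quasi-likelihood model). Without the 2 libraries with shifted clock genes the sham difference of these 4 genes was 0.91 to 1.05.

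The promoters of 2 of these genes are shown because the genes stood higher together. Both hold CTGATTGG, in capitals, the core of the Y box of class II promoters. The sequences are from RefSeq (GRCm38.p6) and run along the strand of each gene. H2-Aa lies on the minus strand, at chr17:34287827-34287914, and H2-Eb1 on the plus strand, at chr17:34305765-34305852.
H2-Aa promoter: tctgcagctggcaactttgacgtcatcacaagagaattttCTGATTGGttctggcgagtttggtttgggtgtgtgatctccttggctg
H2-Eb1 promoter: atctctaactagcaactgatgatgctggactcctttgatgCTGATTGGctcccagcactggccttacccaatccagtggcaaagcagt
The motif, searched on both strands (reverse complement CCAATCAG) from 250 bases before to 50 after each start, occurs in 4 of the 10 class II list genes with a promoter in the table, including H2-Eb2 and H2-Oa, and in 4.1% of 32851 promoters. Among the other genes without overlap between the genotypes, H2-DMb1 and Ctss have a promoter there without the motif. No promoter was available for H2-Ab1 and Cd74. A match of letters is not evidence of binding.

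**Figure D5:**
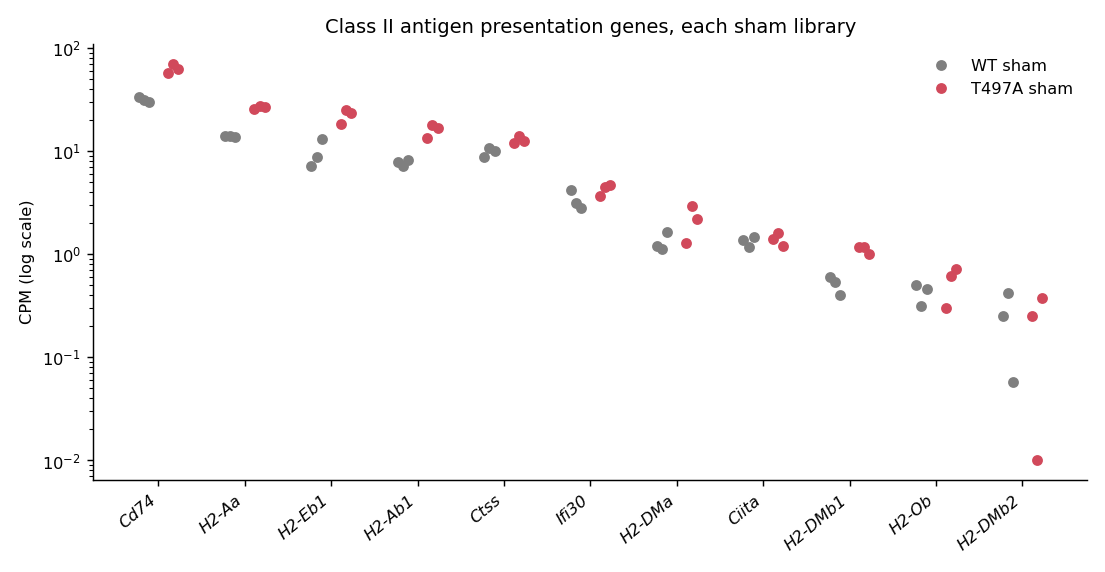
Level in CPM on a log axis of the 11 tested class II presentation genes in each of the 6 sham libraries, wild type grey and T497A red; the T497A library of H2-DMb2 with 0 counts is drawn at 0.01. The 4 most abundant genes and Ctss and H2-DMb1 show no overlap between the genotypes.

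Markers of the cells that carry class II molecules were also higher in T497A in most cases, and none was called. The 21 tested macrophage and myeloid markers had a median of 0.22 and 20 of them were higher in T497A; the summed level of the whole marker list was 260.0, 299.2 and 252.7 CPM in wild type and 296.4, 349.6 and 306.5 in T497A, so the groups overlapped. Of these, Mpeg1, the pore-forming protein of macrophages, was at 6.37, 8.98 and 5.92 CPM against 13.4, 12.9 and 13.0 (0.88 ± 0.22). Ccr2, the receptor of recruited monocytes, overlapped, at 1.43, 1.25 and 1.68 CPM against 1.39, 3.77 and 2.86 (0.88 ± 0.34). The Ccr2 difference was 0.45 without the 2 libraries with shifted clock genes. Csf1r and Adgre1, which mark tissue macrophages in general, overlapped (0.08 ± 0.10 and 0.15 ± 0.21). Of the 16 tested lymphocyte markers 12 were higher, with a median of 0.64, and 1 had an unadjusted p under 0.05. Only 2 of the 16 had a 95% interval within 2-fold. The median was 0.32 without wild type replicate 1, 0.36 without T497A replicate 2 and 1.07 without wild type replicate 2. It was lowest, at 0.26, in the fit of the 6 sham libraries alone, over the markers kept in that fit. The 19 lymphocyte markers in the table summed to 6.44, 18.8 and 10.2 CPM against 12.7, 15.0 and 12.1, so these are low levels and the groups overlapped. The B cell marker Ms4a1 was at 0.185, 0.313 and 0.174 CPM against 0.149, 0.888 and 0.616 (1.27 ± 0.64). The part of these cells in the class II difference was not tested, and in bulk tissue more cells of a type and more RNA per cell cannot be told apart. Of 41 interferon-stimulated genes 34 were higher, with a median of 0.17, and none had an unadjusted p under 0.05. Igtp, an interferon-induced GTPase, was the highest of them at 8.77, 8.87 and 9.87 CPM against 17.1, 17.2 and 13.4 (0.80, 95% interval -0.46 to 2.05).

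A few single genes outside these lists had the next smallest p values, none of which passed the test over all genes. With no low-count filter Celsr1, Sorcs2 and Bdh1 of those below were called (adjusted p = 0.0471, 0.0016 and 0.0124 by edgeR's quasi-likelihood test). Acad9, a mitochondrial assembly factor of complex I, was at 35.1 to 42.5 CPM in wild type and 28.2 to 32.5 in T497A (-0.37 ± 0.08). Celsr1, an adhesion receptor of planar cell polarity, was at 22.6, 19.5 and 19.3 CPM against 13.0, 15.6 and 15.1 (-0.49 ± 0.12). Sorcs2, a sorting receptor, was at 28.7, 19.3 and 25.5 CPM against 17.9, 15.1 and 13.7 (-0.66 ± 0.17). These 3 genes had no overlap between the groups and were lower in T497A, as was so for 3.98% of all tested genes; 8.21% had no overlap in either direction. Ccl21a, a chemokine that guides lymphocytes, was at 4.20, 3.66 and 3.54 CPM against 6.02, 6.82 and 4.97 (0.64 ± 0.16). Bdh1, an enzyme of ketone body use, was at 181, 149 and 158 CPM against 243, 186 and 201 (0.37 ± 0.10). Ern1, a sensor of unfolded proteins in the endoplasmic reticulum, was at 21.7, 21.5 and 22.2 CPM against 18.9, 17.6 and 16.3 (-0.31 ± 0.09). It lies 1.4 Mb from Prkca on chromosome 11, within the segment described above, and its log2 fold change after TAC was 0.14. Of the 25 cell cycle genes Ccnb1, the mitotic cyclin, had an unadjusted p under 0.05, at 0.323, 0.134 and 0.290 CPM against 0.547, 0.555 and 0.968, a level of few counts.

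How much these libraries could have shown depends on the level of a gene. Of the 9522 genes with a mean of at least 5 CPM, 97.6% had a 95% interval within 2-fold. A log2 fold change beyond 1 either way was seen for 11, all of them higher in T497A (1.01 to 2.77). They include Rps3a3, Gm15772, Gm15459 and AA465934, which switch level between libraries (see the last section). Hspa1b was high in T497A replicate 1 alone and Angptl4 in T497A replicate 2 alone. Of the 6242 genes below 5 CPM, 42.0% had an interval that narrow. Over all 477 genes with an unadjusted p under 0.05 after sham, 217 (45.5%) had the same sign after TAC, close to the 46% of all tested genes, in contrasts that share no library. Of the 477, 68 had the same sign and an unadjusted p under 0.05 after TAC and 93 had the opposite sign at that level. The 4 called genes were among the 68.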

How the data were processed

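The deposited table holds whole-number counts of reads for 55401 genes, as the authors counted them and before any normalization. The submitters' processing notes list the mm10 build and, among tools, STAR 2.7.3a, Subread 1.6.3 with featureCounts, Trim Galore 0.6.4 and limma 3.50.3. Settings, gene annotation, strand use and the handling of reads that fit several places: not given in the sources used here. Therefore counts of pseudogenes, near-identical genes and overlapping genes are uncertain; 217 genes share a symbol with another.

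In R 4.3.3, filterByExpr kept 15764 genes (minimum count 10) for edgeR 4.0.16 (TMM, robust glmQLFit, glmQLFTest, 1 model over 4 groups of 3 libraries). The biological coefficient of variation was 17.2%. The code was tested on simulated data. CPM are scaled by TMM; the standard error was taken as the log2 difference over the root of F, and intervals are 95%. Positions come from GENCODE vM21 (GRCm38), matched for 15751 tested genes. Pseudogene sources were found by sequence match to its transcripts. Alternatives were RLE size factors, DESeq2 1.42.0, limma 3.58.1 (voom), other filters, the 6 sham libraries alone, no mitochondrial genes, and leaving out libraries.

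Members and lists were chosen with earlier results of these data known. Named genes were the called genes, the 20 next smallest p values (mean CPM at least 1), the 5 largest rises and falls (mean CPM at least 5), 18 fixed cardiac genes, the extremes of each list with members at unadjusted p under 0.05, and the sources of called pseudogenes; list members beyond this and genes of the last section were chosen after their values were seen. Since the title of every sample has 1 and the same replicate number, replicate numbers here follow accession order and pair nothing. The other number in each title occurs once and has no stated meaning; 3 ranges of it were a term in an alternative chosen after seeing the data. Values of some single genes are not reported here.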

Additional observations from a re-analysis of the deposited data

Results flagged for a closer look

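For 10 of the named genes the genotype difference after TAC was not the one after sham, by the interaction test of edgeR's quasi-likelihood model (adjusted p from 0.0047 for Uchl1 to 0.0473 for Tango6 and Acadm). Values are log2, T497A minus wild type, and the interaction is the difference after TAC minus that after sham. In 3 genes the sham difference was negative with an unadjusted p under 0.05 and the TAC difference positive: Acad9 (-0.37 after sham, 0.20 after TAC, interaction 0.57), Sorcs2 (-0.66, 0.93 and 1.59) and Tango6, a transport and Golgi organisation gene (-0.47, 0.32 and 0.79). Ccnb1 went the other way at a low level (1.48, -1.65 and -3.12). Acad9, Sorcs2 and Tango6 were named for their small sham p, and Ccnb1 for an unadjusted sham p under 0.05. The same sham values enter the interaction of these genes. Of Acad9, Sorcs2 and Tango6, the TAC difference was called for Sorcs2 (adjusted p = 0.0067) but not for Acad9 or Tango6 (adjusted p = 0.155 and 0.144, all by edgeR's quasi-likelihood test). The calcium release channel gene Ryr2 had -0.22, 0.56 and 0.78, and the potassium channel subunit gene Kcnip2 had -0.07, 0.76 and 0.84. Abcc9, the regulatory subunit of the ATP-sensitive potassium channel, had -0.17, 0.77 and 0.94. Aldh1l2, a mitochondrial folate enzyme, had -0.36, 1.32 and 1.68. Uchl1, a ubiquitin hydrolase, had 0.30, -1.42 and -1.72. Acadm had 5.92e-06 after sham and 0.44 after TAC (interaction 0.44). None of the 4 genes called after sham was among the 248 with a called interaction, 1.57% of those tested.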

How the results depend on the processing

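The count of 4 genes called after sham became 11 with DESeq2, 2 with limma-voom, 14 with no low-count filter (9 higher and 5 lower in T497A), 1 without the 2 libraries with shifted clock genes and 2 with 3 ranges of title numbers as a term (both chosen after seeing the data), and 1 to 5 when each sham library was left out in turn. Without wild type replicates 1, 2 and 3 it was 3, 5 and 4, with 1, 3 and 4 of the genes shared with the main 4; without T497A replicates 1, 2 and 3 it was 4, 1 and 2, with 2, 1 and 2 shared. The 6 sham libraries alone gave 5 calls, 2 of them shared. Gm10039 was called under every alternative run (log2 fold change 2.53 to 2.83). Gpr179 (4.46 to 6.73), Gm6612 (3.52 to 5.28) and Gm7666 (1.99 to 2.29) stayed higher in T497A in all of them, but lost their call in 8, 8 and 4. Mccc1 was called without wild type replicate 2 (adjusted p = 0.0298, edgeR's quasi-likelihood test). The class II median ranged from 0.41 without T497A replicate 2 to 0.95 without T497A replicate 1. The interaction count of 248 became 848 with DESeq2, 898 with no low-count filter, 70 without the 2 libraries with shifted clock genes, and 40 to 230 when each sham library was left out in turn; the cause was not tested. With no low-count filter H2-Ab1, Epn3, Celsr1, Sorcs2 and Bdh1 were called too. Over the named genes and settings, the side of the threshold was kept in 1805 cases, a call was gained in 13 and lost in 20. In 72 of the 1805, over 34 genes, a difference that was not called changed sign: Hspa1b went from 1.42 to -1.53 without T497A replicate 1, and Angptl4 from 1.22 to -0.75 and Arntl from 0.63 to -1.53 without T497A replicate 2. No called value reversed. No paired analysis was possible because all titles carry the same replicate number and their other number occurs once each. Intervals and low counts cover counting and library spread only, and genes under 5 CPM were measured too loosely to bound a 2-fold difference in most cases.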

Other observations

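Of all tested genes, 6 with a mean of at least 5 CPM switched between a low and a high level from library to library, with a step of at least 8-fold between neighbours when the 6 sham libraries were ordered by level (0.1 CPM added). They were found by a search of all tested genes chosen after their values were seen, and 5 of the 6 are annotated as processed pseudogenes. In most the step did not follow genotype. Gm13394 on chromosome 2 was at 0.208, 102 and 79.6 CPM in wild type and at 0.199, 97.6 and 102 in T497A after sham. Rps3a3, a ribosomal protein pseudogene on chromosome 13, was at 0.277, 24.8 and 0.203 CPM against 26.2, 27.8 and 0.11. Gm15772 on chromosome 5 was at 19.1, 0.246 and 0.29 CPM against 0.373, 22.4 and 24.3, and after TAC at 0.233 to 0.351 in wild type and 20.7 to 24.7 in T497A. Gm15459 on chromosome 5 was at 3.66 to 4.85 CPM in 5 sham libraries and at 74.9 in T497A replicate 2. Gm6969 on chromosome 12 took 3 levels: 19.6, 10.6 and 0.987 CPM in wild type and 10.8, 11.0 and 1.1 in T497A. No pair of these 5 genes had the same set of sham libraries above the low state, but T497A replicate 2 was above it for each of them. All 5 pseudogenes also held both states among the TAC libraries.

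The sixth, AA465934, lies on chromosome 11 and followed genotype in 11 of the 12 libraries. It was at 7.74, 8.74 and 9.92 CPM in T497A sham and at 7.65, 6.96 and 9.13 in T497A TAC, and at 0.395, 0.30 and 0.186 in wild type TAC. Of the wild type sham libraries, replicates 2 and 3 were at 0.246 and 0.407 CPM and replicate 1 at 8.26. The gene was not called with all libraries (log2 fold change 1.55, unadjusted p = 0.147 by edgeR's quasi-likelihood test). It was called without wild type replicate 1. As that is the only library that departs from genotype, this call is not separate support for a difference. Gm10039 and Gpr179, nearer to Prkca on the same chromosome, were at wild type levels in that library (2.35 and 0.0231 CPM).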
